A study of Rattus norvegicus with 16 samples.

Results

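Krt8, Krt18, Krt19, Krt13, Krt17, Cd24 and Car3 were followed through the intervertebral disc cells of rats. These 7 genes were taken by name, and all 7 were listed in all 16 libraries, out of 13596 genes listed in every library and 14930 listed in any. Male Sprague-Dawley rats, 8 weeks old at surgery, had 2 lumbar discs stabbed with a 27-gauge needle from 1 side (lumbar disc puncture, LDP), and 2 discs higher in the same spine were left uninjured as controls (CON). The 2 discs of a kind were pooled into 1 single-cell library (10x 3′ chemistry), so each rat gave 1 CON and 1 LDP library. Discs were taken 2 weeks after surgery from rats 1 to 4 and 8 weeks after surgery from rats 5 to 8, which gave 4 libraries in each of 4 groups. The CON discs came from an operated animal, no unoperated rat was analysed here, and the rats of both time points differ in age as well as in time since surgery.

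Keratins are the intermediate filament proteins of epithelia, and they assemble only as pairs of a type II and a type I chain. Krt8 is a type II chain whose usual partners are the type I chains Krt18 and Krt19, and this pair is the filament of simple epithelia and of the notochord. The notochord is the embryonic rod from which the nucleus pulposus (NP) derives, and rats keep large vacuolated notochordal cells in the NP for much of life. Krt13 and Krt17 are type I keratins best known from stratified mucosa and from basal or stressed epidermis. Cd24 is a small glycosylated surface protein of NP cells and also of B cell precursors and neutrophils. Car3 is a cytosolic carbonic anhydrase with low activity that is abundant in skeletal muscle and fat.

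Promoters of 3 of the 7 genes are held in the RefSeq table of rat build GRCr8, and they are shown because Krt8 and Krt18 encode the chains of 1 filament pair and were read together below. Each run is the 250 bases before the start, 5′ to 3′ on the gene's strand. Capitals mark the letters of the searched motifs.
Krt8, chr7:135010340-135010589 (minus strand): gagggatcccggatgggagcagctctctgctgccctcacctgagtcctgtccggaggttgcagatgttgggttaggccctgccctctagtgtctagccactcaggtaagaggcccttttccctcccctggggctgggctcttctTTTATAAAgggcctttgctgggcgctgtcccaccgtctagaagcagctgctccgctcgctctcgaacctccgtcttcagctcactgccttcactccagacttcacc
Krt18, chr7:135035918-135036167 (plus strand): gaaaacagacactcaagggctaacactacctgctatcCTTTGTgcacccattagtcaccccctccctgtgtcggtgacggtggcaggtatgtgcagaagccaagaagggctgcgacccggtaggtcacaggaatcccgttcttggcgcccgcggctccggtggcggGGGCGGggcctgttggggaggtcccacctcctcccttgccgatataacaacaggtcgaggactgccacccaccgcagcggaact
Cd24, chr20:48656227-48656476 (plus strand): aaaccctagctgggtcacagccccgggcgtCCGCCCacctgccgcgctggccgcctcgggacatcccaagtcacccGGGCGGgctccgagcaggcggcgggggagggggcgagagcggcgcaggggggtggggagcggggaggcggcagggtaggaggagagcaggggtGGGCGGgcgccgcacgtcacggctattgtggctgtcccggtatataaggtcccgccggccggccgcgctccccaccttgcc
The starts of Krt8 and Krt18 lie 25829 bases apart on chromosome 7 and are read in opposite directions. Krt8 holds TATAAA at −104 and its reverse, TTTATA, at −106, in overlapping letters. TATAAA was found on either strand in 12.9% of 33469 promoters of this length. Krt18 has no TATAAA in these bases and holds GGGCGG at −84 and CTTTGT, the reverse of ACAAAG, at −213. Cd24 holds GGGCGG at −174 and at −81 and its reverse, CCGCCC, at −220. GGGCGG was found in 30.5% and ACAAAG in 16.3% of all promoters. The other searched letters were CCAAT (34% of promoters), TCACACC (3.22%) and TGACTCA (4.05%), and they are not in these 3 windows. The share of G and C was 60% for Krt8, 62% for Krt18 and 75.6% for Cd24, against a median of 51.2% over all promoters. Krt19, Krt13, Krt17 and Car3 are named only.

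The 16 libraries held 2221 to 15918 cells and 17759809 to 85025591 UMIs (counted molecules), and the median cell of a library had 3861 to 8092 of them. The authors sorted the cells of each group into intervertebral disc (IVD), endothelial, myeloid and lymphoid classes, and the IVD class held 127077 of 149272 cells, with 1313 to 14252 per library. A further 5379 cells carried no class name. Its defining markers were high, with medians over libraries of 2743 CPM for Acan, 3735 CPM for Col2a1 and 6160 CPM for Comp. At 2 weeks the authors split the IVD class into NP cells and cells of the annulus fibrosus, inner (IAF) and outer (OAF). OAF cells had the annulus collagen Col1a1 at a median of 57614 CPM and Acan at 395 CPM, against 3873 CPM of Acan in NP and 3318 CPM in IAF cells. NP and IAF cells differed little in Acan, S100b (687 and 674 CPM) and Pdia4 (241 and 247 CPM). They differed in depth, with median UMIs per cell of 6997 to 10580 in NP and 2442 to 6403 in IAF cells. The OAF markers Igfbp5 (169 and 277 CPM), Lum (23.0 and 38.9 CPM) and Myoc (4.42 and 11.6 CPM) were lower in NP than in IAF cells. Col1a1 went the other way (3204.5 and 2838.5 CPM). LDP subclusters are deposited as numbers, so the NP and IAF names there rest on a match to the study's own description. Of the notochord genes, Tbxt (brachyury, the defining transcription factor) and Foxa2 are listed, while Shh and Noto are not. Pairs of libraries shared 0 to 75 cell barcodes, with a median of 19 over 120 pairs.

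A level here is the mean over cells of CPM (UMIs scaled to a fixed total per cell), which counts molecules at the 3′ end and carries no length scaling. In IVD cells Krt8 had a median over the 16 libraries of 16.6 CPM (range 9.78 to 30.6). Krt18, its type I partner, had a median of 4.08 CPM (1.55 to 9.62), and Krt19 had 2.57 CPM (0.562 to 5.08). Krt13 had a median of 69.6 CPM (27.7 to 120.7) and Krt17 of 66.8 CPM (23.1 to 133.5). Cd24 had 332.5 CPM (231.5 to 556.4), the narrowest range of the 7 relative to its median, and Car3 had 4.70 CPM (0.117 to 19.5), the widest. With all UMIs, Cd24 was found in 64.8% of IVD cells, Krt13 in 28.4%, Krt17 in 13.9%, Krt8 in 5.59%, Krt18 in 1.39%, Krt19 in 1.33% and Car3 in 0.919%. Reads of Krt8 and Krt18 can match processed copies of these genes elsewhere in a mammalian genome, and how such reads were counted is not given in the sources used here.

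The classes and subclusters were cut from the same cells, so their levels are a description without a test. NP and IAF cells had overlapping levels of the keratins, and OAF cells had far less of every keratin and of Cd24. For Krt8 the medians over 8 libraries were 26.8 CPM in NP, 17.6 CPM in IAF and 2.86 CPM in OAF cells, and the OAF level was 13.9% of the NP level of the same library at the median, lower in 8 of 8 libraries. The IAF level of Krt8 was 65.7% of the NP level, lower in 6 of 8, so NP and IAF did not separate. Krt13 (96.6, 90.2 and 4.30 CPM in NP, IAF and OAF) and Krt17 (66.5, 51.6 and 2.04 CPM) had OAF levels of 4.50% and 2.40% of NP, again lower in 8 of 8 libraries. In IAF cells Krt13 was at 98.3% of NP, lower in 5 of 8 libraries, and Krt17 at 76.7%, lower in 7 of 8. Krt18 (2.60, 2.65 and 0.249 CPM) and Krt19 (3.02, 3.17 and 0.0938 CPM) were alike in NP and IAF cells and low in OAF cells, at 11.2% and 2.99% of NP. Cd24 had medians of 340.6, 288.5 and 52.9 CPM, with IAF at 84.1% of NP in the same library and lower in 8 of 8. The authors named NP cells partly by high Cd24 and Acan and IAF cells partly by less Cd24, so this order is built into the names. The NP to OAF ratio of Acan, for comparison, was of the same order, with OAF at 9.41% of NP. Car3 alone did not follow it, with 2.80, 2.22 and 5.65 CPM and an OAF level of 93.0% of NP, lower in 4 of the 7 libraries with a level in NP.

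**Figure D1:**
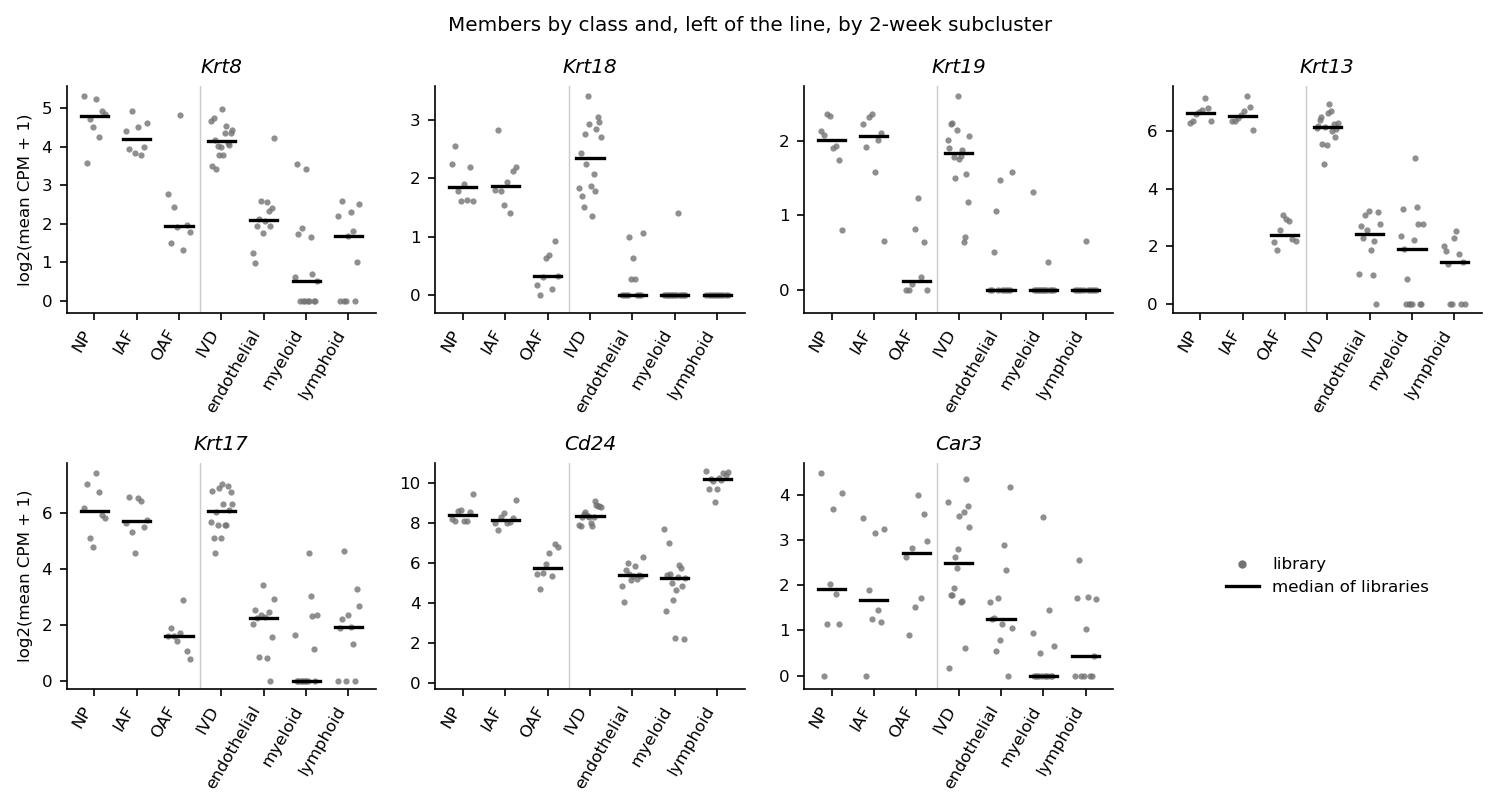
Level of each of the 7 genes, as log2(mean CPM + 1), in the NP, IAF and OAF subclusters at 2 weeks (left of the line) and in the authors' classes (right of it); points are libraries and bars are medians of libraries. The 5 keratins and Cd24 are low in OAF cells, Cd24 is highest in lymphoid cells, and Car3 has its highest median among these classes in OAF cells at 5.65 CPM.

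In the other named classes most of the 7 genes were low. Endothelial cells, which are not known to make Acan, held it at 5.66% of the IVD level of the same library, and Krt13 at 4.91% and Krt17 at 4.01% were close to that share. Cd24 at 12.1% and Krt8 at 18.5% were above it, and Car3 stood at 45.4%, lower than in IVD cells in 9 of 12 libraries. Krt18 had a median of 0 CPM in endothelial, myeloid and lymphoid cells. Some libraries held few UMIs of a class, such as 75553.8 in myeloid cells of the CON library of rat 4 and 56666.5 in lymphoid cells of the LDP library of rat 2. For a gene as low as Krt18 a 0 there does not show absence. Cd24 was the exception among named classes. Lymphoid cells had a median of 1190 CPM (528.6 to 1575), or 291.3% of the IVD level, and were higher in 11 of 11 libraries. Cells without a class name had Cd24 medians of 82.9 CPM in CON and 381.1 CPM (up to 1035) in LDP discs at 2 weeks. Their Acan medians there were 351.5 and 1878 CPM. At 8 weeks their Cd24 medians were 38.9 and 30.0 CPM. The order for Cd24 in named cells was therefore lymphoid, then NP and IAF, then OAF, endothelial (41.2 CPM) and myeloid cells (37.3 CPM), and the last 3 overlapped. Lymphoid cells made up 0.772% of 1 CON library at 2 weeks and none of the others, 0.157% to 18.8% of 3 LDP libraries at 2 weeks, 0.109% to 20.5% of CON and 2.13% to 8.60% of LDP libraries at 8 weeks.

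Car3 was concentrated in a few cells. Its 5253 UMIs in IVD cells lay in 1168 cells, and 194 cells with at least 5 UMIs held 73.7% of them, with up to 281 UMIs in 1 cell. In Krt17, 3708 such cells held 62.3% of 61746 UMIs, and in Krt8, 706 cells held 38.9% of 16057 UMIs, with up to 138 in 1 cell. Krt13 was spread more evenly, with 14.6% of 64637 UMIs in 1556 such cells. Krt18 had 23.9% of 2996 UMIs in 80 such cells and Krt19 had 2.31% of 1952 UMIs in 7. The Fano factor (variance over mean of UMIs per cell, after drawing 1000 UMIs from each cell) had medians over libraries of 2.51 for Car3, 2.07 for Krt17, 1.64 for Krt8, 1.42 for Cd24, 1.26 for Krt18, 1.14 for Krt13 and 0.998 for Krt19, where 1 is the value of random sampling. Cells with at least 5 UMIs of Krt17 made up 3.89% of NP, 1.24% of IAF and 0.0106% of OAF cells, and those of Krt8 1.09%, 0.218% and 0.0424%. The UMIs per cell differ between NP and IAF cells as given above, and their part in these shares was not tested.

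A small population with Tbxt held high Krt8 and, in some libraries, much of the Car3. A Tbxt UMI was found in 237 IVD cells, 0.0294% to 0.838% of the IVD cells of a library (median 0.133%). At 2 weeks 98 of 141 such cells were in the NP subcluster (69.5%), 32 in IAF and 11 in OAF. These subclusters held 35373, 34885 and 9424 cells in turn. NP cells had the highest median UMIs per cell, and the part of depth in these counts was not tested. In the LDP library of rat 1, cells with Tbxt were 39 of 4725 NP and 7 of 528 OAF cells. In the 10 libraries with at least 10 such cells, Krt8 had a median of 673 CPM in cells with Tbxt and 17.7 CPM in cells without it, and was 7.56 to 211 times higher in 10 of 10. Krt18 had medians of 81.3 and 3.08 CPM (higher in 9 of 10) and Krt19 of 28.6 and 2.25 CPM (10 of 10). Cd24 was 2.02 to 7.49 times higher, with medians of 1323 and 348 CPM. Car3 had medians of 973 and 4.32 CPM and was higher in 10 of 10. Of all Car3 UMIs of the IVD class, 46.6% lay in the 237 cells, unevenly by library. They held 562 of 767 UMIs in the CON library of rat 1 and 822 of 1039 in the LDP library of rat 4. In the LDP library of rat 7 they held 43 of 730, and in the CON library of rat 3 they held 0 of 122. Of the 1168 IVD cells with Car3, 89 had a Tbxt UMI. Cdh2, the N-cadherin of notochordal cells, was also high (187.9 against 1.93 CPM), while Acan was alike (2956 against 2743 CPM).

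Krt13 and Krt17 went the other way in these cells. Krt13 had a median of 18.2 CPM in cells with Tbxt and 67.1 CPM in the others, and Krt17 had 3.97 and 59.8 CPM, each higher in only 1 of the 10 libraries. Among the 85 cells with at least 2 Tbxt UMIs, Cd24 was found in 96.5%, Krt8 in 83.5%, Car3 in 70.6%, Krt18 in 43.5% and Krt19 in 29.4%, but Krt17 in 7.06% and Krt13 in 3.53%. In the 152 cells with 1 Tbxt UMI, Cd24 was found in 72.4%, Krt8 in 32.2%, Car3 in 19.1% and Krt13 in 23.0%. Cells with Tbxt had more genes than other IVD cells in 13 of 16 libraries, with a median of 2150 genes, and 28.7% of them had over 2500. NP cells, where most of them lay at 2 weeks, had library medians of 2094 to 2350 genes. How doublets were treated is not given in the sources used here, and their part was not tested. The authors kept only cells with up to 3000 genes.

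**Figure D2:**
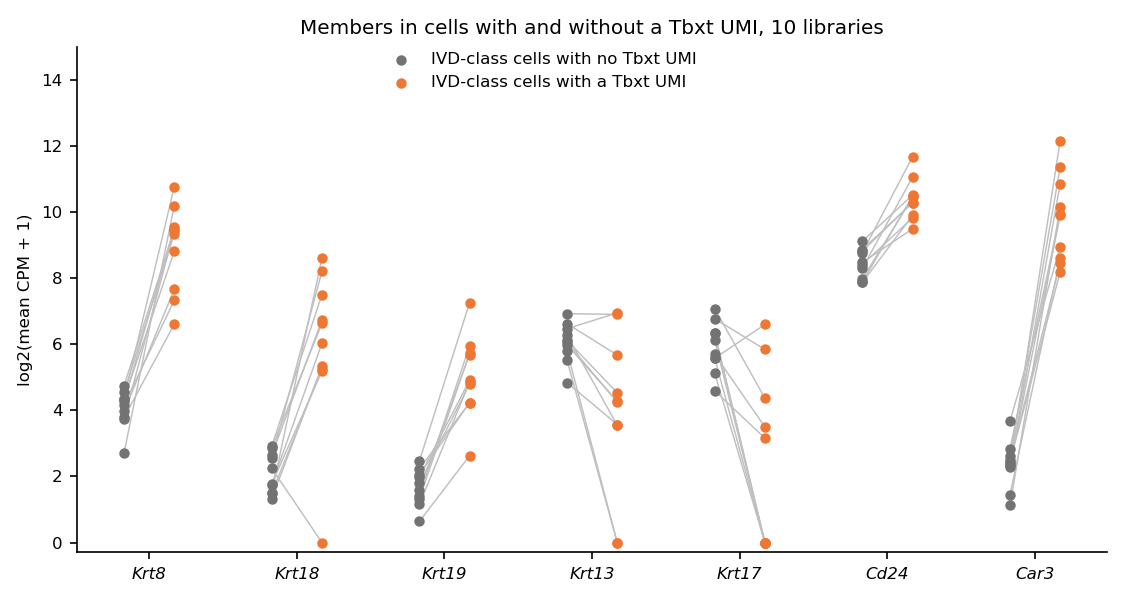
Level of each of the 7 genes, as log2(mean CPM + 1), in IVD cells with a Tbxt UMI and in IVD cells without one, in the 10 libraries with at least 10 cells with Tbxt; each point is a library. Krt8 (673 against 17.7 CPM at the median) and Car3 (973 against 4.32 CPM) are far apart, and Krt13 and Krt17 are lower in the cells with Tbxt in 9 of 10 libraries each.

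Cells chosen for high levels of 1 of the genes led to different companions. Among the 194 Car3-high cells (at least 5 UMIs), 69 had a Tbxt UMI (35.6%), 45 were also Krt8-high where 1.26 were expected from the shares within libraries, and 84.0% had Cd24. Cd24 was found in 64.8% of all IVD cells, in 79.4% of Krt13-high and in 76.8% of Krt17-high cells. High cells were chosen without equal depth. Car3-high cells had a median over libraries of 2246 genes, against 1878 in the other IVD cells, and the part of depth was not tested. Leading genes were read only among genes found in at least 20% of the high cells. In the 6 libraries with at least 10 Car3-high cells, the genes with the greatest median log2 ratio over the other IVD cells were Tbxt (7.03), Cdh2 (6.23), Gpc3 (5.76), the unnamed gene AABR07028902.1 (5.70), Hopx (5.47) and Krt8 (5.08). Of the 706 Krt8-high cells, 9.21% had Tbxt, and their leading genes were Hopx (3.55, higher in 13 of 15 libraries), Efemp1 (3.04), Cdkn1c (2.90), the desmosome plaque gene Dsp (2.09, 15 of 15) and Pla2g7 (1.96, 15 of 15). Krt17-high cells were led by smaller ratios, of the chondromodulin gene Cnmd (1.26) and the water channel gene Aqp3 (1.24, 16 of 16). Krt13-high cells were led by Pcsk2 (1.09, 16 of 16), and Cd24-high cells by Hspa4l (0.87), Dsp (0.84) and Lmo7 (0.73, 16 of 16). These genes lead by construction of the choice and carry no test.

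To read co-expression at equal depth, 1000 UMIs were drawn from each of 126195 IVD cells, and 882 cells with fewer were left out. At this depth 64.9% of cells had none of the 7 genes, 30.9% had 1, 3.97% had 2 and 0.250% had 3. A further 24 cells had 4 genes, 2 cells had 5, and no cell had more. The cells with UMIs of both genes of a pair were set against the number expected if the genes were independent within each library.

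The partner chains Krt8 and Krt18 were found together in 33 cells where 6.20 were expected, 5.32 times as many, and above expectation in 12 of 16 libraries. Krt8 and Krt19 met in 16 cells (expected 5.58, above expectation in 10 libraries), and Krt18 and Krt19 in 8 cells (expected 1.13). The greatest excess among the 7 involved Car3, which met Krt8 in 50 cells (expected 5.75, in 13 of 16 libraries), Krt18 in 17 (expected 1.31) and Krt19 in 10 (expected 0.917). Tbxt met Car3 in 29 cells (expected 0.254) and Krt8 in 27 (expected 1.16), each above expectation in 11 libraries. Krt13 and Krt17 met in 518 cells, 1.26 times the 411 expected. Krt8 met Krt17 in 178 cells, 1.98 times the expected number and above it in 14 of 16 libraries, and in NP cells alone in 91 cells, 2.17 times and above it in 8 of 8. Krt8 and Krt13 met in 176 cells, 1.23 times.

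The ratios of Cd24 with the other genes were smaller than those of Car3 with Krt8, Krt18 and Krt19. Cd24 met Tbxt in 50 cells (2.97 times the expected number), Car3 in 142 (1.55 times), Krt18 in 156 (1.40 times) and Krt19 in 99 (1.16 times). It met Krt8 in 686 cells (1.36 times, 15 of 16 libraries), Krt13 in 2363 (1.06 times) and Krt17 in 1546 (1.04 times). Krt13 and Car3 met in 8 cells where 23.2 were expected, above expectation in 2 of 16 libraries. Krt19 and Krt17 met in 4 cells where 14.1 were expected (0.283 times), but at 2000 UMIs in 36 cells where 41.3 were expected (0.871 times). Tbxt met Krt13 in 1 cell (expected 4.50) and Krt17 in 1 (expected 3.28). These counts pool cells of 16 libraries and carry no p. In IAF and OAF cells the rarer pairs had expected numbers too low at this depth to read a ratio.

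**Figure D3:**
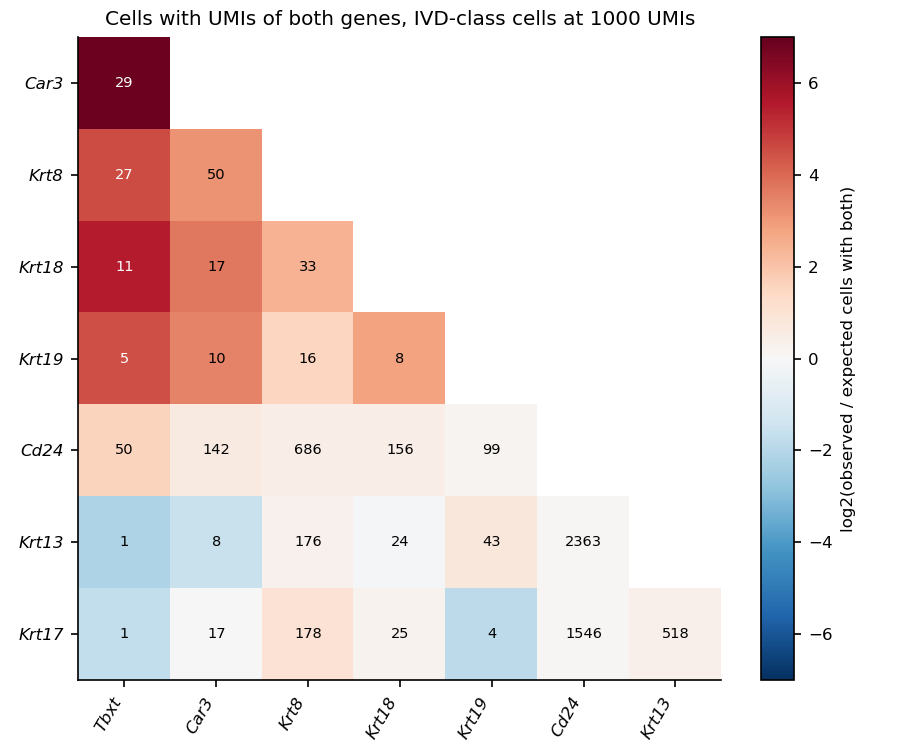
Pairs of the genes and Tbxt in IVD cells drawn to 1000 UMIs; the colour is log2 of the number of cells with both genes over the number expected from independence within libraries, and the printed numbers count the cells with both. Car3, Krt8, Krt18, Krt19 and Tbxt form a block above 0, and Krt13 and Krt17 are below 0 with Tbxt.

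Genes were also ranked by likeness to the Krt8, Krt18 and Krt19 set. At 1000 UMIs no library had 20 cells with at least 2 of the 3 keratins, so cells with at least 1 (21 to 352 per library) were set against cells with none. Among 2359 genes with a UMI in at least 5% of the keratin cells in most libraries, a limit that leaves out rarer genes such as Tbxt and Car3, the 10 with the greatest median log2 ratio over 16 libraries were Cdkn1c (1.57, higher in 15 of 16), Irx3 (1.23), Dsp (1.18, 16 of 16), Cnmd (0.97), Sfrp5 (0.92), Dclk1, Scd2, Efnb2 and Enpp2 (0.77 each) and Crip1 (0.76, 16 of 16). Cdkn1c encodes a cell cycle inhibitor, and Dsp links keratin filaments to the desmosome. Cd24 came 15th, at 0.69 and higher in 16 of 16 libraries. Across 86 class and subcluster profiles of the libraries, which share library and depth, Pearson's r with Krt13 was 0.875 for Krt17 and 0.799 for Krt8. Krt8 correlated at 0.704 with Krt18 and at 0.336 with Cd24. The gene most like Krt19 was Tcfl5 (0.870), the gene most like Cd24 was Fam213a (0.863), and the gene most like Car3 was P2rx5 (0.619).

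The first comparison set LDP against CON discs for the 7 genes in IVD cells at 2 weeks, within rats. LDP discs lay lower in the spine than CON discs in every rat. Puncture and disc level therefore cannot be told apart, here or in the comparisons below. Wording such as after injury stands for LDP against CON. CON and LDP cells were clustered apart, so the cells named IVD can differ between them, and its part in the differences was not tested. None of the 7 passed the test. In all, 14 of 11572 genes passed (0.121%), by limma with a block for rat and Benjamini-Hochberg adjustment over all genes, and 1347 had an unadjusted p under 0.05. Each value is a log2 fold change of mean CPM with 1 CPM added, and the median over all genes was −0.08 at 2 weeks.

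Krt8 averaged 24.6, 10.4, 25.8 and 17.2 CPM in CON discs of rats 1 to 4 and 30.6, 12.9, 19.6 and 22.2 CPM in their LDP discs. The 2 groups overlapped, and rat 3 went down (log2 fold change 0.14 ± 0.16 SE, adjusted p = 0.720 by limma). Over 14 alternatives the Krt8 value ran from 0.065 to 0.32. Krt18 averaged 2.57, 4.42, 2.24 and 1.85 CPM in CON and 2.64, 1.55, 3.21 and 2.43 CPM in LDP discs, with no common direction (−0.11 ± 0.26, adjusted p = 0.873 by limma).

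Krt19 averaged 3.05, 2.73, 3.69 and 3.73 CPM in CON and 2.37, 2.48, 2.66 and 0.562 CPM in LDP discs. It was lower after injury in 4 of 4 rats and the groups did not overlap, as held in this direction for 4.36% of all genes tested, and it did not pass the test (−0.58 ± 0.25, adjusted p = 0.422 by limma). Without rat 4 the value was −0.24. In the NP subcluster Krt19 averaged 3.39, 3.24, 4.14 and 4.04 CPM in CON and 2.74, 2.81, 2.36 and 0.747 CPM in LDP discs, again without overlap, as held in this direction for 2.75% of genes (−0.63 ± 0.24, adjusted p = 0.457 by limma), and without rat 4 the value was −0.33.

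Krt13 averaged 68.5, 70.4, 82.1 and 87.9 CPM in CON and 97.4, 120.7, 101.7 and 62.3 CPM in LDP discs. It was higher in the LDP discs of rats 1 to 3 and lower in those of rat 4 (0.27 ± 0.22, adjusted p = 0.617 by limma). Over 14 alternatives the Krt13 value ran from 0.11 to 0.54. Krt17 averaged 50.6, 109.6, 33.5 and 23.1 CPM in CON and 133.5, 80.3, 46.7 and 46.8 CPM in LDP discs. It was higher in 3 of 4 rats, with a spread among CON discs as wide as the difference (0.60 ± 0.28, adjusted p = 0.446 by limma), and the value was 0.34 without rat 1 and 0.95 without rat 2.

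Cd24 averaged 238.8, 231.5, 318.0 and 356.4 CPM in CON and 259.3, 234.2, 321.8 and 556.4 CPM in LDP discs. It was higher in 4 of 4 rats, and by far the most in rat 4 (0.20 ± 0.13, adjusted p = 0.564 by limma). Without rat 4 the value was 0.05. The mix of subclusters within the IVD class differed between libraries. OAF cells, with low Cd24, were 1418 of 9741, 454 of 3398, 1140 of 12283 and 1210 of 11922 IVD cells in CON discs. In LDP discs of rats 1 to 4 they were 528 of 8397, 2335 of 14252, 992 of 10697 and 1347 of 8992. The part of this mix in the IVD levels was not tested. Car3 averaged 13.5, 0.117, 2.47 and 2.44 CPM in CON and 10.6, 2.10, 2.15 and 11.3 CPM in LDP discs. The CON value of rat 2 rests on 2 UMIs, and the rats did not share a direction (0.71 ± 0.49, adjusted p = 0.565 by limma). The value was 0.46 without rat 2 and 0.34 without rat 4.

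**Figure D4:**
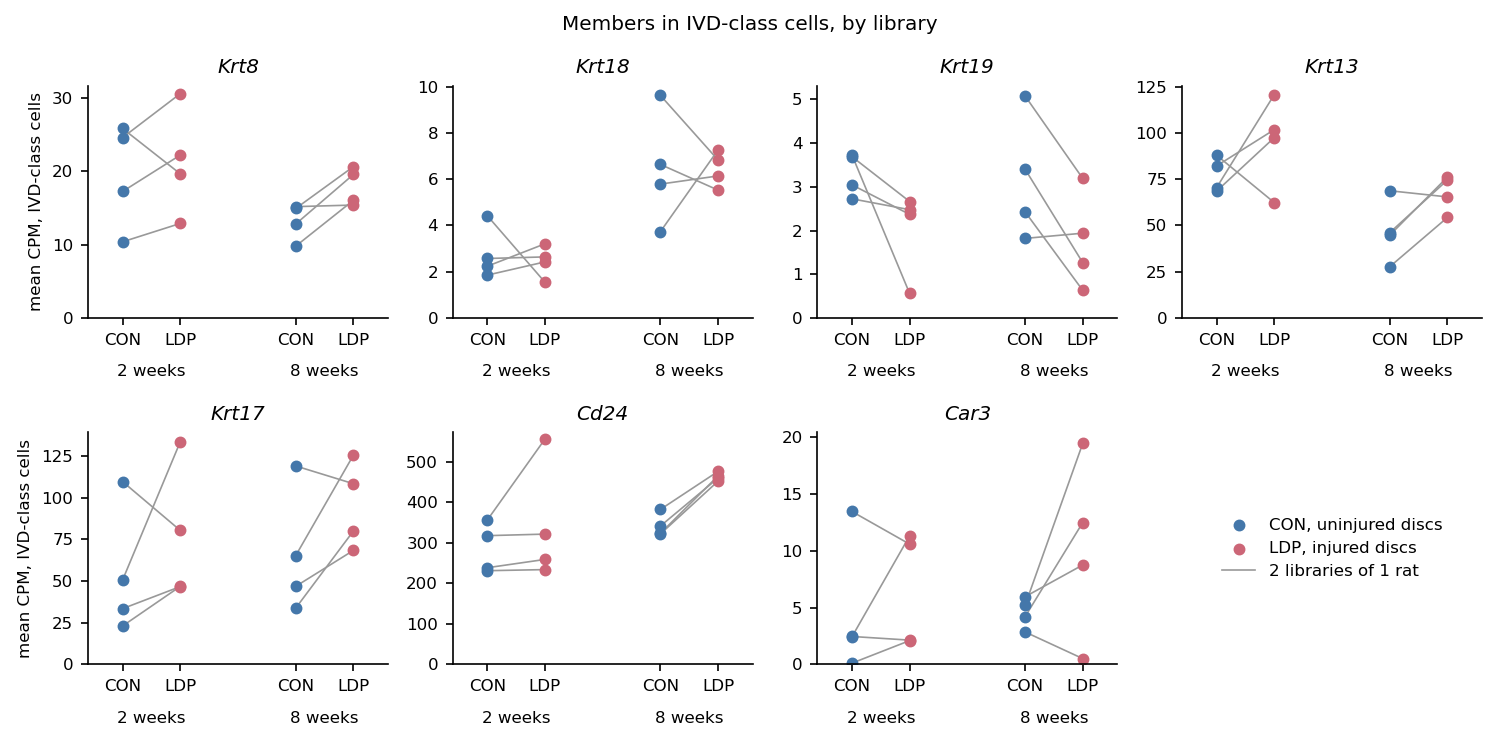
Mean CPM of each of the 7 genes in IVD cells of each library, CON and LDP at 2 weeks (left) and 8 weeks (right); lines join the 2 libraries of a rat. At 8 weeks the LDP libraries lie above the CON libraries without overlap for Krt8 and Cd24, and at 2 weeks below them for Krt19.

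At 8 weeks the same comparison gave higher mean levels of Krt8, Krt13, Krt17, Cd24 and Car3 after injury, and none of the 7 passed the test. Of 11572 genes, 30 passed (0.259%), 13 higher (0.112%) and 17 lower (0.147%). The median over all genes was −0.16.

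Cd24 averaged 382.6, 341.6, 323.5 and 322.1 CPM in CON discs of rats 5 to 8 and 476.6, 460.3, 465.6 and 452.5 CPM in their LDP discs. All 4 LDP libraries were above all 4 CON libraries, as held for 2.44% of genes in this direction (342 ± 28.2 to 464 ± 10.1 CPM, mean ± SD, n = 4). The log2 fold change was 0.44 ± 0.13 with adjusted p = 0.138 by limma. Krt8 averaged 9.78, 15.2, 12.8 and 14.9 CPM in CON and 16.03, 15.4, 19.6 and 20.6 CPM in LDP discs, also without overlap (0.42 ± 0.16, adjusted p = 0.190 by limma), with rat 6 alike in both.

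Krt13 averaged 46.1, 27.7, 68.7 and 44.7 CPM in CON and 74.5, 54.3, 65.4 and 76.1 CPM in LDP discs and was higher in 3 of 4 rats (0.58 ± 0.22, adjusted p = 0.186 by limma). Krt17 averaged 65.2, 46.8, 119.0 and 33.8 CPM in CON and 125.4, 68.3, 108.3 and 80.0 CPM in LDP discs and was also higher in 3 of 4 (0.64 ± 0.28, adjusted p = 0.237 by limma). In both genes the exception was rat 7, whose CON disc was the highest of its group.

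Krt18 averaged 5.79, 3.73, 9.62 and 6.64 CPM in CON and 6.14, 7.26, 6.83 and 5.53 CPM in LDP discs, a range that the CON discs spanned (0.05 ± 0.26, adjusted p = 0.914 by limma). Krt19 averaged 2.43, 1.82, 3.41 and 5.08 CPM in CON and 0.633, 1.94, 1.27 and 3.19 CPM in LDP discs and was lower in 3 of 4 rats (−0.63 ± 0.25, adjusted p = 0.211 by limma). Car3 averaged 2.87, 5.20, 4.20 and 5.97 CPM in CON and 0.522, 19.5, 12.5 and 8.77 CPM in LDP discs, with rat 5 alone going down (0.56 ± 0.49, adjusted p = 0.503 by limma). The value was 1.20 without rat 5, 0.17 without rat 6 and 0.29 without rat 7.

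The calls at 8 weeks depended on the test. On the recovered counts DESeq2 passed Krt13 (0.75, adjusted p = 0.00813), Cd24 (0.57, adjusted p = 0.0398) and Krt8 (0.59, adjusted p = 0.0457), all higher, where it passed 2.49% of genes in this direction. edgeR did not pass Krt13 (adjusted p = 0.111), Krt8 (adjusted p = 0.156) or Cd24 (adjusted p = 0.157). In cells without a Tbxt UMI the 8-week groups of Krt8 overlapped, with 8.11 to 14.7 CPM in CON and 5.57 to 19.5 CPM in LDP discs, since the LDP library of rat 6 then had 5.57 CPM (0.22 ± 0.30, adjusted p = 0.673 by limma). The Car3 difference became 0.22 ± 0.41. Cd24 stayed without overlap in such cells, at 315.2 to 382.1 CPM in CON and 436.5 to 475.2 CPM in LDP discs (0.43, adjusted p = 0.144 by limma). With cells holding UMIs of Ptprc, Cd79b, Hbb or Lyz2 left out, Cd24 gave 0.43 at 8 weeks and 0.20 at 2 weeks.

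The change from 2 to 8 weeks in the effect of injury passed the test for 0 of 11572 genes by limma, where 216 had an unadjusted p under 0.05 and edgeR gave 0 and DESeq2 13. Each of the 7 genes had an adjusted p of 1.00 for it, so no difference between the time points was shown.

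**Figure D5:**
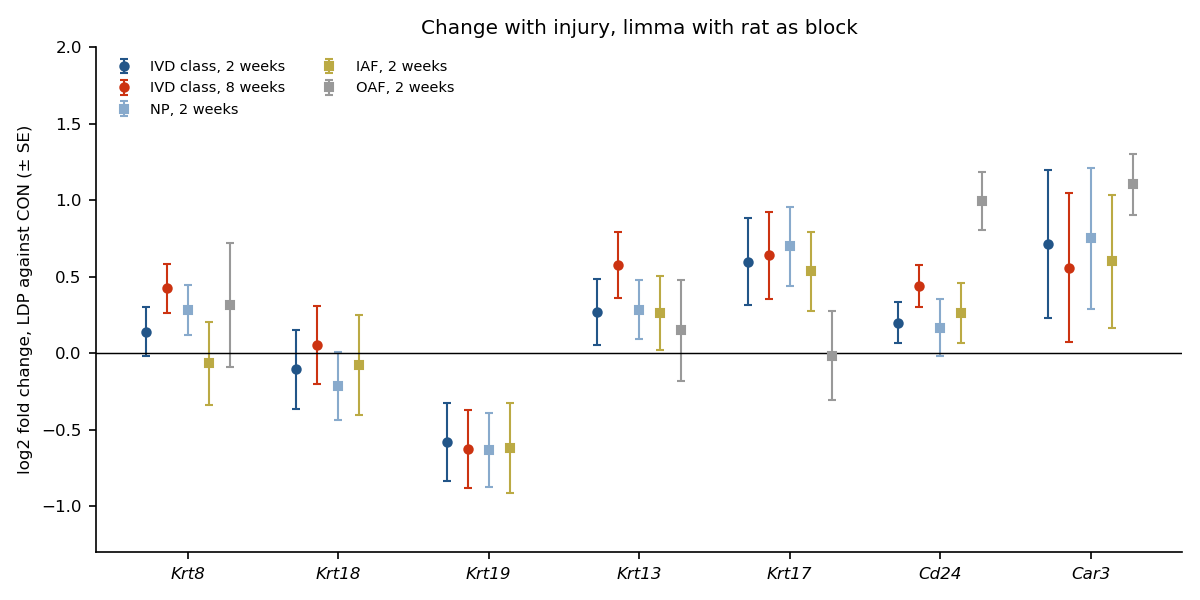
Log2 fold change of LDP against CON with its SE for each of the 7 genes, in IVD cells at 2 and 8 weeks and in the 2-week subclusters. Krt19 is below 0 in IVD cells at both times (−0.58 and −0.63), and Cd24 and Car3 in OAF cells (0.99 and 1.10) are the furthest above 0 relative to their SE.

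In the subclusters at 2 weeks none of the 7 genes passed by limma. The subclusters were also cut apart in CON and LDP discs, so a difference can reflect which cells were placed there, which was not tested. Of 10811 genes in NP cells and 10854 in IAF cells 0 passed by limma, with 1076 and 1440 at an unadjusted p under 0.05, while DESeq2 passed 191 and 194 and edgeR 1 and 0. In NP cells Krt17 averaged 72.7, 133.5, 33.4 and 27.0 CPM in CON and 174.4, 106.9, 60.2 and 56.1 CPM in LDP discs, higher in 3 of 4 rats (0.70 ± 0.26, adjusted p = 0.454 by limma). Cd24 in NP cells averaged 297.6, 278.3, 387.7 and 402.9 CPM in CON and 278.2, 278.0, 383.7 and 694.8 CPM in LDP discs. It was higher in rat 4 alone (0.17, adjusted p = 0.755 by limma), and without rat 4 the value was −0.04.

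OAF cells, which had the lowest Cd24 of the 3 subclusters, gave the differences nearest to the threshold. Cd24 in OAF cells averaged 42.9, 25.2, 44.9 and 61.0 CPM in CON and 88.8, 40.4, 122.1 and 111.1 CPM in LDP discs. It was higher in 4 of 4 rats (43.5 ± 14.7 to 90.6 ± 36.2 CPM, mean ± SD, n = 4), with a log2 fold change of 0.99 ± 0.19 and adjusted p = 0.0761 by limma. Car3 averaged 5.19, 0.876, 6.11 and 1.85 CPM in CON and 15.03, 2.31, 10.9 and 6.90 CPM in LDP discs of the same rats, also higher in 4 of 4 (1.10 ± 0.20, adjusted p = 0.0587 by limma). In this comparison 139 of 11667 genes passed by limma (1.19%), 135 of them higher (1.16%). Markers of other cells were also higher in these cells, among them Gfap (2.48) and Des (2.07), which passed, and the muscle gene Tnni2 (1.38 ± 0.28, adjusted p = 0.0915 by limma), while the muscle genes Acta1 (−0.43) and Tnnt3 (−0.63) were not, and their part in Cd24 and Car3 was not tested. OAF cells with a Tbxt UMI numbered 1, 0, 0 and 0 in CON and 7, 2, 1 and 0 in LDP discs of rats 1 to 4. The part of these cells in the OAF levels of Cd24, Car3 and Krt8 was not tested.

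Both genes passed by edgeR (adjusted p = 0.0226 for Cd24 and 0.0384 for Car3) and by DESeq2 (0.000101 and 0.0185), which passed 1.13% and 1.42% of genes as higher. Without the block for rat, limma gave adjusted p of 0.347 and 0.478. Over 11 alternatives in OAF cells Cd24 was called in 3 and Car3 in 2, with values of 0.51 to 1.10 and 0.072 to 1.53. Krt8 in OAF cells averaged 5.83, 1.85, 4.39 and 2.81 CPM in CON and 27.4, 1.50, 2.91 and 2.48 CPM in LDP discs, where only the library of rat 1 was high (0.32, adjusted p = 0.823 by limma). Krt13 (0.15) and Krt17 (−0.01) differed little, and Krt18 and Krt19 were too low in OAF cells to enter the test.

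Shares of IVD cells with a UMI were compared at 1000 UMIs over all 8 rats, by a two-sided exact sign-flip test over 256 arrangements, for 8 shares and with p left unadjusted. Cd24 was found in 18.6%, 19.0%, 24.2% and 26.6% of cells in CON and 20.1%, 19.2%, 24.3% and 36.1% in LDP discs at 2 weeks. At 8 weeks the Cd24 shares were 26.9%, 23.8%, 24.4% and 24.5% in CON and 34.1%, 29.7%, 31.7% and 31.2% in LDP discs. The mean share was 23.5% ± 3.12 in CON and 28.3% ± 6.34 in LDP discs (SD, n = 8), higher in 8 of 8 rats by 4.83 percentage points (exact p = 0.00781, the smallest that 8 rats allow). Another draw of the UMIs gave 7 of 8 rats (exact p = 0.0156), and 2000 UMIs gave 6 of 8 (exact p = 0.0313). Endothelial cells at 1000 UMIs had Cd24 in 3.84%, and with all UMIs the IVD shares were 61.6% and 70.8%. The mix of NP, IAF and OAF cells within the IVD class differs between libraries, and its part in these shares was not tested.

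For Krt17 the mean share was 4.02% in CON and 5.74% in LDP discs, higher in 6 of 8 rats (exact p = 0.0547), and for Krt13 it was 5.61% and 7.23%, higher in 6 of 8 (exact p = 0.0625). Car3 had 0.209% and 0.361% (higher in 6 of 8, exact p = 0.0469), and the share in endothelial cells, 0.251% (17 of 6767 cells), lay between them. Another draw of the UMIs gave exact p = 0.164 for Car3. Krt8 had 1.39% and 1.53% (exact p = 0.422), Krt18 had 0.360% and 0.389% (exact p = 0.633) and Krt19 had 0.326% and 0.213% (exact p = 0.117). Cells with at least 2 of Krt8, Krt18 and Krt19 made up 0.0285% and 0.0561% (exact p = 0.219), a difference of 0.0276 points that was 0.0124 points without rat 6, and another draw gave exact p = 0.672. With 4 rats a single time point cannot go below p = 0.125 in this exact test.

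Time since surgery was compared in CON discs only. The 2-week and 8-week discs come from different rats and were clustered apart, so time, age, rat and any processing batch cannot be told apart. Krt18 was higher at 8 weeks (0.97 ± 0.25, adjusted p = 0.0273 by limma) and Krt13 was lower (−0.77 ± 0.23, adjusted p = 0.0403 by limma), where 6.92% of 11201 genes were called higher and 11.6% lower. Both calls held in only 5 of 14 alternatives, always in the same direction. Krt8 (−0.47, adjusted p = 0.216 by limma) and Cd24 (0.28, adjusted p = 0.215 by limma) did not pass, and neither did Krt19 (−0.09), Krt17 (0.37) or Car3 (0.54). The sign of Car3 turned in 3 of 14 alternatives, among them edgeR (−0.15) and DESeq2 (−0.13).

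The other genes of these families are given by their counts, beside the 0.121% and 0.259% of all genes called with injury in IVD cells at 2 and 8 weeks and the 1.19% in OAF cells, and nothing particular to a list is read from a count of 0. With time 18.5% of all genes were called in CON discs, and the calls with time below are to be read beside that share. Of 19 notochord and NP symbols, among which T and Tbxt both stand for brachyury, 16 are listed, Tbxt among them, and 14 entered the test in IVD cells. Car12, a membrane carbonic anhydrase, rose at both times (1.13 ± 0.15, adjusted p = 0.0482 at 2 weeks and 1.20 ± 0.15, adjusted p = 0.0192 at 8 weeks, by limma). No gene was called at 2 weeks with a pseudocount of 0.1 or over all cells of a library, so the 2-week calls of Car12 and of Cidec, given next to its list, end there. At 8 weeks no gene was called without rat 8, so their 8-week calls end in that alternative. The others did not pass, and the list's median was 0.17 at 2 and −0.13 at 8 weeks. Named by mean CPM over the 16 libraries, with no length scaling, were the hypoxia factor gene Hif1a (1892), Cytl1 (1194) and Lgals3 (1008). In OAF cells Cdh2 rose (2.21 ± 0.38, adjusted p = 0.0489 by limma), a call that ends on mean log2 values, where no gene was called in OAF cells. Foxa2 was higher in CON discs at 8 than at 2 weeks (1.19 ± 0.30, adjusted p = 0.0220 by limma).

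Of 14 other keratins listed, 7 entered the test and 0 passed with injury. Named by mean CPM were Krt10 (30.5 CPM), Krt16 (13.01) and Krt23 (3.54), and with time Krt10 was higher (0.42, adjusted p = 0.0281 by limma) and Krt1 lower (−0.62, adjusted p = 0.0290 by limma). Of 12 listed desmosome and junction genes, which anchor keratin filaments, 9 entered and 0 passed, and those named by mean CPM were Plec (360 CPM), Tjp1 (94.8) and Dsp (30.6). All 7 other intermediate filament genes entered, those named by mean CPM being Vim (1977 CPM), Lmna (704) and Des (12.7), and 0 passed in IVD cells with injury. In OAF cells the muscle filament gene Des (2.07 ± 0.25, adjusted p = 0.00963 by limma) and the glial filament gene Gfap (2.48 ± 0.27, adjusted p = 0.00520 by limma) rose, and with time Des was lower in CON discs (−1.14, adjusted p = 0.0367 by limma).

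Of 11 other carbonic anhydrases listed, 6 entered and 0 passed with injury, and those named by mean CPM were Car5b (49.2 CPM), Car9 (37.1) and Car6 (16.5). With time Car6 (−0.74, adjusted p = 0.0206 by limma) and Car11 (−0.41, adjusted p = 0.0334 by limma) were lower. Other cells that could carry the 7 genes were read by their own lists. Skeletal muscle, where Car3 is high, had 9 genes listed and 4 tested, with 0 passing with injury and Tnnt3 lower with time (−0.39, adjusted p = 0.0496 by limma). Its summed level in IVD cells was 20.1 to 48.0 CPM in CON and 33.6 to 95.3 CPM in LDP discs at 2 weeks, 25.3 to 55.1 and 32.6 to 67.5 CPM at 8 weeks, and its part in Car3 was not tested. Named by mean CPM were Tnni2 (36.9 CPM), Tnnt3 (3.98) and Acta1 (2.33). Of 6 adipocyte genes listed and 4 tested (by mean CPM, Adipoq at 19.0, Cidec at 15.3 and Fabp4 at 14.99 CPM), the lipid droplet gene Cidec rose at 2 weeks (1.00 ± 0.15, adjusted p = 0.0482 by limma) and 8 weeks (0.97 ± 0.15, adjusted p = 0.0313 by limma).

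Among 9 listed B cell genes (by mean CPM, Ebf1 at 7.92, Cd79b at 2.52 and Rag1 at 2.14 CPM) 5 were tested and 0 passed with injury. Their summed level in IVD cells was 8.27 to 17.9 CPM in CON and 6.07 to 58.7 CPM in LDP discs at 2 weeks, and 5.95 to 42.8 and 3.99 to 11.4 CPM at 8 weeks. With cells holding Ptprc, Cd79b, Hbb or Lyz2 left out, the Cd24 differences were 0.20 at 2 and 0.43 at 8 weeks, as given above. Of 9 granulocyte and erythroid genes (by mean CPM, Hbb at 36.3, Lcn2 at 24.9 and S100a9 at 12.7 CPM) 7 were tested and 0 passed with injury, while Lcn2 was higher with time (1.62, adjusted p = 0.00910 by limma). Their sums were 8.28 to 150.8 and 14.5 to 254.5 CPM at 2 weeks and 17.5 to 318.5 and 40.0 to 212.2 CPM at 8 weeks in CON and LDP discs, and of these genes only Hbb was among those whose cells were left out above. Of the skin epithelium symbols searched 4 were listed, 3 were tested and 0 passed with injury, and with time Perp (0.80, adjusted p = 0.00354 by limma) and Krt10 were higher and Krt1 was lower. This list was searched with the symbol Trp63, so Tp63, the symbol under which the libraries list that gene, was not read in it.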

How the data were processed

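Single cells of 16 libraries, 4 in each of CON and LDP at 2 and 8 weeks, were read by 10x 3′ sequencing. The authors processed the reads with Partek Flow, and the submitters' processing notes name build rn6. The aligner, the annotation and the handling of doublets and free RNA are not given in the sources used here. The authors kept cells with under 10% mitochondrial reads, 500 to 3000 genes and 500 to 30000 UMIs, clustered each group apart by K-means and named the classes by markers. For each cell and gene the authors deposited log2(CPM + 1), computed from counts. The deposited cell totals are expected counts, and the deposited percent columns give mitochondrial and ribosomal reads. The LDP subclusters at 2 weeks are deposited as numbers only, and which number is NP and which IAF was settled by a match to the study's own description.

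CPM were recovered from the deposited log2 values, and counts from CPM and the deposited totals. Of the values above 0, 99.4% came out within 0.02 of a whole number, and for the 7 genes all did. Mean CPM per library and class was tested on log2(mean CPM + 1) by limma 3.58.1 with a block for rat, for genes over 1 CPM in at least 4 libraries, at adjusted p below 0.05. edgeR 4.0.16 and DESeq2 1.42.0 on the summed counts were alternatives and called 29 and 566 genes in IVD cells at 8 weeks, where limma called 30. Other alternatives left out the block or 1 rat, changed the pseudocount (0.1 or 10) or the filter, averaged log2 values, or used other cells. Leaving out cells with a Tbxt UMI was added after seeing the data. Each model was tested on simulated data. Cells were thinned to 1000 UMIs for shares, where p covers the spread between rats. Shares were to be adjusted over the 7 genes, and no gene's share then came under 0.05. They are given unadjusted since the genes were chosen with results known.

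The 2 libraries of a number come from 1 rat, so the block rests on the animal. After removal of group means their correlations over genes were −0.146, 0.201, 0.135 and −0.183 for rats 1 to 4 and 0.142, 0.454, 0.033 and 0.381 for rats 5 to 8. The 7 genes and all lists were chosen with earlier results of these data known. Named beyond the 7 were, per list, up to 3 genes with the highest mean CPM in IVD cells and every called gene. The genes most like the keratins were ranked by ratio, and those most like Krt19, Cd24 and Car3 by correlation across profiles. Leading genes of cells with at least 5 UMIs and the values of Tbxt cells were chosen after the values were seen. R 4.3.3, Python 3.11.15, numpy 2.4.6, scipy 1.17.1 and pandas 2.3.3 were used.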

Additional observations from a re-analysis of the deposited data

Results flagged for a closer look

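In each group of 4 libraries the highest and lowest values were checked for a wide gap to the others (Dixon's criterion). It marked 8 of 102 groups (7.84%), where chance marks about 1 in 20. In OAF cells, Krt8 in the LDP library of rat 1 at 2 weeks had 27.4 CPM against 1.50 to 2.91 CPM in the others of its group, and Krt19 in the CON library of rat 4 had 0.772 CPM against 0 to 0.0621. In IAF cells, Krt18 in the CON library of rat 2 had 6.10 CPM against 1.93 to 2.47, and Cd24 in the LDP library of rat 4 had 573.9 CPM against 259.6 to 309.5. In NP cells, Car3 in the CON library of rat 1 had 21.7 CPM against 0 to 3.11. In IVD cells, Krt19 in the LDP library of rat 4 at 2 weeks had 0.562 CPM against 2.37 to 2.66. That library and the LDP library of rat 5 at 8 weeks also stood apart in some other genes. Tjp1 had 43.8 and 47.5 CPM there, against 78.5 to 123.1 CPM in all other libraries. Hif1a had 1040.5 and 1227.3 against 1591.3 to 2811.5 CPM, and Car9 73.1 and 80.9 against 22.9 to 43.3 CPM. Vim and Plec did not set both apart. What this means for Krt19 and Cd24 in these libraries was not tested. The share of IVD cells with a Tbxt UMI in the LDP library of rat 1 was 0.679% against 0.0654% to 0.156%, the same library in which Krt8 stood out in OAF cells. The share of IVD cells with Car3 at 1000 UMIs in the LDP library of rat 5 at 8 weeks was 0.0493% against 0.534% to 0.622%.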

How the results depend on the processing

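Of 503 alternative values for single genes in the comparisons, 446 kept their direction and side of the threshold, 18 lost and 9 gained a call, and 30 changed sign. Of 90 alternative counts of called genes, 55 stayed within 1.5 times.

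In IVD cells at 2 weeks, 14 genes were called. The count was 0 with a pseudocount of 0.1, 8 with 10, 1 on mean log2 values, 23 by edgeR, 285 by DESeq2, 0 over all cells, 23 without cells holding Ptprc, Cd79b, Hbb or Lyz2, and 0 to 7 with a rat left out. At 8 weeks the 30 became 72 and 15 with those pseudocounts, 1 on mean log2 values, 566 by DESeq2, 1 over all cells and 0 to 3 with a rat left out. The change of the injury effect with time, called in 0 genes, was called in 13 by DESeq2 and in 13 without rat 3 (0 to 13 with a rat left out). The 2072 genes called with time in CON discs became 1189 without rat 1, 1044 without rat 3 and 1271 without rat 5 (1044 to 2374 with a rat left out). In NP cells edgeR called 1 and DESeq2 191 genes, and in IAF cells DESeq2 called 194 and mean log2 values 2, where limma called 0. In OAF cells the 139 became 83 with a pseudocount of 0.1, 0 on mean log2 values, and 86 and 89 without rats 2 and 4 (86 to 136 with a rat left out).

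Without the block for rat, the pairing of libraries by animal being left out, 6 genes were called at 2 weeks in IVD cells and 3 for the change of the injury effect with time. The Cd24 share then gave 4.83 percentage points with exact p = 0.0740 and the Car3 share 0.152 points with exact p = 0.111. In OAF cells it gave adjusted p of 0.347 for Cd24 and 0.478 for Car3 by limma, and it changed no other call of the 7 genes.

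Several values changed sign, most of them near 0 but also Car3 with time (0.54) and Krt8 in OAF cells (0.32), and the cause was not tested. Krt18 at 2 weeks in IVD cells gave 0.0038 on mean log2 values, 0.0024 by edgeR, 0.012 by DESeq2 and −0.27 to 0.22 with a rat left out (0.22 without rat 2). At 8 weeks it gave −0.0032 on mean log2 values, −0.018 over all cells, −0.071 without Tbxt cells and −0.20 without rat 6. In NP cells Krt18 gave 0.0035 on mean log2 values and −0.42 to 0.022 with a rat left out (0.022 without rat 2), and Cd24 −0.038 (without rat 4) to 0.26. In IAF cells Krt8 gave 0.056 on mean log2 values, 0.23 by edgeR, 0.25 by DESeq2 and −0.34 to 0.23 (without rat 3) with a rat left out, and Krt18 0.0048, 0.25, 0.20 and −0.32 to 0.37 (without rat 2). In OAF cells Krt17 gave 0.040 with a pseudocount of 10, 0.17 without rat 3 and 0.19 without rat 4, in a range from −0.35. There Krt13 gave −0.014 on mean log2 values, −0.067 without rat 1 and −0.13 without rat 2, in a range up to 0.49, and Krt8 −0.26 (without rat 1) to 0.58. With time, Car3 gave −0.15 by edgeR, −0.13 by DESeq2 and −0.036 (without rat 2) to 1.20 with a rat left out, and Krt19 −0.29 to 0.078 (without rat 6).

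The differences in shares moved with the draw of UMIs. Another seed gave 0.382 points for Krt8 (exact p = 0.0703), 5.05 points for Cd24 (exact p = 0.0156), −0.0104 points for Krt18 (exact p = 0.859), −0.127 for Krt19 (0.0156), 1.91 for Krt13 (0.0234) and 0.139 for Car3 (0.164). At 2000 UMIs Cd24 gave 5.80 (exact p = 0.0313), Krt17 gave 2.80 (exact p = 0.0313) and Car3 0.156 (0.156), and with all UMIs Krt13 gave 8.23 (0.0234) and Krt17 6.13 (0.0313). Over all cells Krt19 gave −0.114 (exact p = 0.0469), Cd24 4.43 (0.0547) and Car3 0.125 (0.0859). With a rat left out the differences were 0.064 to 0.253 points for Krt8, −0.00924 (without rat 6) to 0.0505 for Krt18, −0.144 to −0.0763 for Krt19, 1.23 to 2.14 for Krt13, 1.34 to 2.14 for Krt17, 4.15 to 5.50 for Cd24 and 0.116 to 0.194 for Car3. Exact p then fell under 0.05 for Krt13 without rat 4 and for Krt17 without rats 2 or 7, and passed it for Car3 without rats 1, 2, 4, 6, 7 or 8. In the subclusters some pairs had too few expected cells at 1000 UMIs to read a ratio. These were Krt8 with Krt19 (0.501; 1 cell against 1.995 expected) and Krt18 with Krt19 (0 against 0.266) in IAF cells, where 2000 UMIs gave 1.46 and 2.54, and Krt17 with Krt13 (0 against 0.102) and with Krt8 (0 against 0.0594) in OAF cells.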
